A study of Homo sapiens with 22 samples.

Results

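The loci of 9 regulators of the neuroendocrine lineage were examined in the deposited chromatin maps of 3 prostate cancer cell lines. The genes were INSM1, NEUROD1, POU3F2, ONECUT2, NKX2-1, PROX1, SOX2, MYCN and SRRM4, which are 9 of the 20163 protein-coding genes of the GENCODE annotation on hg19. A region belonged to a locus when it overlapped, by at least 1 bp, the gene span extended by 50 kb on each side. The 9 windows held 1229.76 kb in all, or 0.0397% of the reference chromosomes, and 399 regions of the 22 lists fell in them.

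Each list held the regions that a peak caller found enriched in 1 library of chromatin immunoprecipitation sequencing (ChIP-seq) or of the assay for transposase-accessible chromatin (ATAC). Of the lines, NCI-H660 has neuroendocrine identity, PC3 lacks both that identity and the androgen receptor, and LNCaP is an adenocarcinoma line driven by the androgen receptor. The question was where the factors FOXA2 and JUN sit, and which of those places are open or marked, near the genes that set neuroendocrine identity. The 22 lists fell into 21 groups, and only FOXA2 in vehicle PC3 cells was listed more than once, so no difference between groups has replicates on both sides and none carries a p-value. The depth of the libraries is unknown.

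NCI-H660 cells gave FOXA2 lists after vehicle and after the LSD1 inhibitor ORY-1001 (10 µM for 4 h). They also gave JUN lists after a negative control siRNA (siNC) and after siFOXA2, and H3K4me2 and ATAC lists under vehicle. PC3 cells gave FOXA2 lists after vehicle, ORY-1001 (10 µM for 4 h) and C12, another LSD1 inhibitor (0.5 µM for 4 h). JUN and FOSL1 lists after siNC and siFOXA2, and H3K27ac and ATAC lists under vehicle, came from the same line, with 2 further FOXA2 ChIP lists under vehicle (the further PC3 lists), whose antibody the labels do not give and which came from another processing folder. LNCaP cells gave JUN lists after siNC and siFOXA1. LNCaP cells stably overexpressing FOXA2 (FOXA2OE) gave a FOXA2 and a JUN list, and a line titled FOXA2K265R, after a FOXA2 mutant, gave a JUN list; another label of that sample names the FOXA2OE line, and the title was followed. H3K27ac was listed only for PC3 and H3K4me2 only for NCI-H660, so neither mark can be compared between lines, and LNCaP had neither mark nor ATAC. Region lists hold no expression values, so the loss of FOXA2 under siFOXA2 could not be checked in them.

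Neuroendocrine prostate cancer is a lethal form that can emerge after therapy against the androgen receptor, and its cells switch on transcription factors of neurons and endocrine cells. INSM1, a zinc finger protein, and NEUROD1, a bHLH protein, belong to that program, POU3F2 and ONECUT2 are homeodomain factors of neural and endocrine tissue, NKX2-1 is a homeodomain factor of lung and forebrain, and PROX1 is a prospero homeobox factor. SOX2 is a stem cell and neural factor, MYCN a MYC family factor, and SRRM4 is no transcription factor but a neural splicing regulator. FOXA2 is a forkhead pioneer factor that can bind closed chromatin, JUN is a subunit of the AP-1 dimer, and LSD1 is a lysine demethylase.

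The sequences under the strongest regions are shown because they hold the letters these factors are known to bind. Each was read from the GRCh37 plus strand, 201 bases around the region's centre, except at the PC3 region, where 29 bases around the motif are given. Capitals mark forkhead words (TNTTTNN on either strand, with A or G at the first N and at the second, and C or T at the last) in the FOXA2 regions and AP-1 words (TGACTCA, whose reverse complement TGAGTCA was searched too) in the JUN region.
NEUROD1 locus, NCI-H660 FOXA2, chr2:182527859-182528059: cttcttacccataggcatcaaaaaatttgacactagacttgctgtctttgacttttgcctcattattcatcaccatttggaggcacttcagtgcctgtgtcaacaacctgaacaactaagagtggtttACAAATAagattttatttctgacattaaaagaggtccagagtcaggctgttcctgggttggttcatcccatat
NKX2-1 locus, NCI-H660 FOXA2, chr14:36983054-36983254: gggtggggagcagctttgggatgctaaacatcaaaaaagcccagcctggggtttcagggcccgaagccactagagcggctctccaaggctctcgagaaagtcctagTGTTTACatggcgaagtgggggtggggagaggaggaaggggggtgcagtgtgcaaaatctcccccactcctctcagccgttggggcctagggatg
PROX1 locus, NCI-H660 FOXA2, chr1:214157720-214157920: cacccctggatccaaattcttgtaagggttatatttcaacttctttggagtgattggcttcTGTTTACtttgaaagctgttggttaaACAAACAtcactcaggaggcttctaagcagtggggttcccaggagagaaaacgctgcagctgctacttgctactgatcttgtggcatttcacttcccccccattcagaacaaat
INSM1 locus, PC3 FOXA2, chr20:20341406-20341434: agttcttcacaTGTTTACccagcagtact
SOX2 locus, NCI-H660 JUN, chr3:181457496-181457696: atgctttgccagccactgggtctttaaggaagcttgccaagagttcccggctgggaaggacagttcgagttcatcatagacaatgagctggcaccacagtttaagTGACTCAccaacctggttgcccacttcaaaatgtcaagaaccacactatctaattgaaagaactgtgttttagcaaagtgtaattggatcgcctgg

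In NCI-H660 cells FOXA2 occupied 6 of the 9 loci with 9 regions, and in the PC3 vehicle list that accompanies the inhibitors 3 of the 9 with 4 regions. The further PC3 lists, several times longer, had regions at 6 and 7 of the 9 loci. The whole FOXA2 list was shorter in NCI-H660, with 11886 regions against 24038. NKX2-1 held 3 of the NCI-H660 regions, SOX2 held 2, and INSM1, NEUROD1, ONECUT2 and PROX1 held 1 each, while POU3F2, MYCN and SRRM4 held none. The PC3 regions lay at POU3F2 with 2 and at INSM1 and PROX1 with 1 each. Over all protein-coding genes, 37.6% had a NCI-H660 FOXA2 region within 50 kb and 54.1% one of the PC3 vehicle list, and for the further PC3 lists the shares were 86.5% and 82.9%. The windows of the 9 genes had a median of 106.458 kb and those of all genes 127.215 kb.

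**Figure D1:**
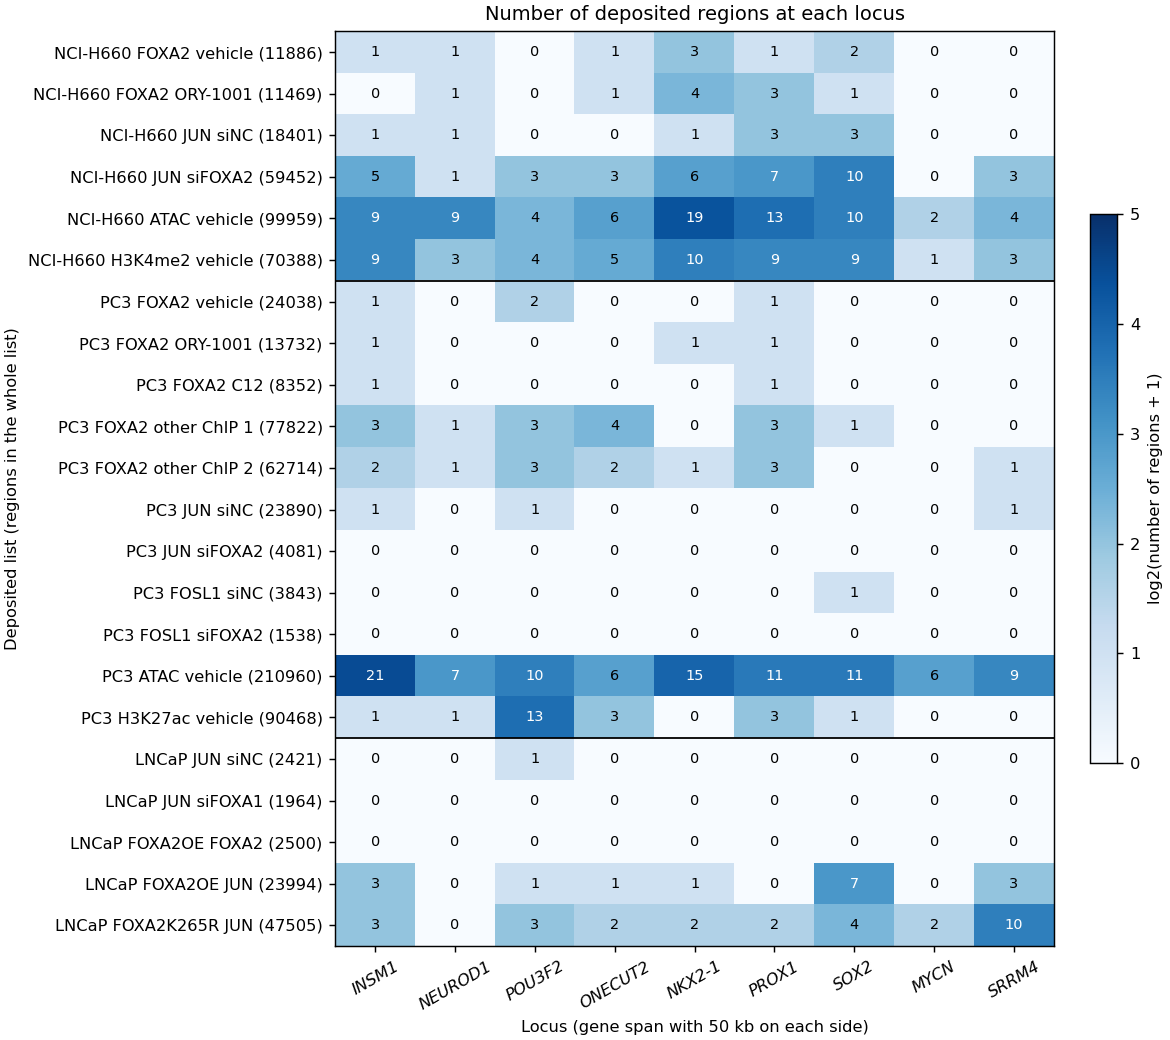
Number of regions of each deposited list (rows, with the length of the whole list in brackets) at each locus (columns, gene span with 50 kb on each side); numbers and the log2 colour scale give the same counts. FOXA2 regions of NCI-H660 lie at 6 loci, those of the 3 PC3 vehicle lists at 3, 6 and 7, and the siFOXA2 JUN list of NCI-H660 is fuller than its control at 7 of the 9.

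The log2 ratio of FOXA2 regions, NCI-H660 over PC3, was 1.17, with an exact 95% interval of -0.67 to 3.32, which includes 0. Intervals here are exact (Clopper-Pearson) and cover counting error only. The same 9 loci took 0.0757% of the NCI-H660 FOXA2 list and 0.0166% of the PC3 vehicle list. The 2 further PC3 FOXA2 lists, of 77822 and 62714 regions, held 15 and 13 regions at the loci, or 0.0193% and 0.0207%. Against these the log2 ratio was -0.74 and -0.53. The sign of the count ratio thus depended on which PC3 list was used, whereas the share of the list was higher in NCI-H660 than in each of the 3 PC3 vehicle lists. More FOXA2 regions in NCI-H660 than in PC3 were found at 4 of the 9 genes (NEUROD1, ONECUT2, NKX2-1 and SOX2) and at 15.7% of all genes. Against each of the further PC3 lists 2 of the 9 remained, NKX2-1 and SOX2, beside 3.99% and 5.18% of all genes.

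At the NEUROD1 locus, chr2:182527798-182528120 in an intron of CERKL, 17.6 kb from the NEUROD1 start, carried the highest scoring NCI-H660 FOXA2 region of the 9 loci. It scored 446, which only 9.57% of the list reached. The score is the whole number that the peak caller gave each region; no source used here states its scale, and from its lowest values it was taken for the -log10 q-value multiplied by 10. At the NKX2-1 locus the leading FOXA2 region, chr14:36983024-36983285, scored 352 and lay 7.20 kb downstream of the NKX2-1 start, in an intron of SFTA3. The PROX1 region, chr1:214157633-214158008, scored 320 and lay in an intron of PROX1 itself, 1.30 kb from its start. Both ranked in the upper part of the list, at 14.3% and 16.7% from the top.

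The other 6 NCI-H660 FOXA2 regions were weaker. At SOX2, chr3:181473391-181474078 scored 144 and chr3:181446287-181446498 scored 43, both in introns of the noncoding gene SOX2-OT. NKX2-1 had further regions of score 98 and 92, the second overlapping an untranslated part of NKX2-1, 1.45 kb from its start. The single regions at INSM1 and ONECUT2 scored 41 and 37. Only the NKX2-1 region closest to its gene lay within 1 kb of an annotated start of a coding transcript, so that 1 of the 9 genes and 3.25% of all genes had a FOXA2 region there.

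FOXA2 places in PC3 were mostly others. The PC3 FOXA2 region near INSM1, chr20:20341237-20341578, scored 927 (top 3.45% of its list) and lay 7.34 kb upstream of INSM1, over the untranslated end of CFAP61. It was listed again in both further PC3 FOXA2 lists, with scores of 1183 and 1103, and overlapped regions of 7 other lists in all. The NCI-H660 FOXA2 region at INSM1 lay at another place, 5.24 kb upstream. The PC3 regions at POU3F2 scored 66 and 72, and the one at PROX1 scored 71, and all 3 were listed in both further PC3 lists. The region of score 72 lay 36.7 kb from the POU3F2 start, over an untranslated part of FBXL4. None of the 9 NCI-H660 FOXA2 regions overlapped a region of the PC3 vehicle list, against 22.5% of the whole NCI-H660 list. The ONECUT2 region, chr18:55113213-55113521, overlapped regions of both further PC3 lists, with scores of 162 and 103. It was 1 of 9 for each, against 31.5% and 28.4% of the whole NCI-H660 list.

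All 9 NCI-H660 FOXA2 regions held a forkhead word within 100 bases of their centre, as did 75.9% of the whole list. In PC3, 3 of the 4 regions held one, as did 77.3% of that list. No NCI-H660 FOXA2 region at the loci held an AP-1 word, which 6.3% of the list held. The match is a description of the letters and not evidence of a bound site.

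Accessible chromatin covered more of these loci in NCI-H660 cells. ATAC regions covered 55.9 kb of the 9 windows in NCI-H660 and 25.5 kb in PC3, although the whole lists covered nearly the same length, 64.0 Mb and 64.4 Mb. At 8 of the 9 loci the accessible length was greater in NCI-H660, as it was at 49.9% of all protein-coding genes. The median ratio over the 9 loci, NCI-H660 over PC3, was 2.27, and over the 19258 genes with accessible length in both lines it was 1.02.

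**Figure D2:**
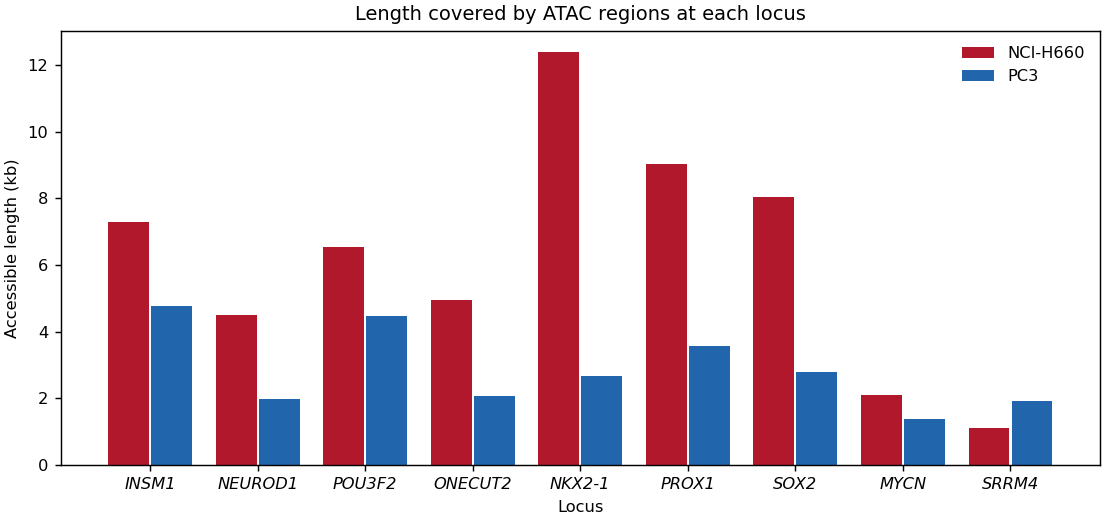
Length in kb covered by ATAC regions within each locus, in NCI-H660 (red) and PC3 (blue) vehicle cells, 1 list per line and no error bars. NKX2-1 has 12.4 kb against 2.65 kb, and only SRRM4 has the shorter length in NCI-H660.

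NKX2-1 differed most, with 12.4 kb accessible in NCI-H660 and 2.65 kb in PC3, a ratio of 4.68 that 1.57% of all genes exceeded. SOX2 had 8.04 kb and 2.79 kb, PROX1 9.04 kb and 3.57 kb, ONECUT2 4.94 kb and 2.06 kb, and NEUROD1 4.49 kb and 1.97 kb. These 4 loci had ratios of 2.27 to 2.88, which between 3.86% and 6.58% of genes exceeded. The ratios at INSM1, MYCN and POU3F2 were 1.53, 1.53 and 1.47, and at SRRM4 0.571, with 1.09 kb in NCI-H660. The difference was therefore wide at 5 loci, small at 3 and opposite at SRRM4.

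The number of ATAC regions gave another order, and the PC3 regions were shorter and their list longer. The loci held 76 ATAC regions in NCI-H660 and 96 in PC3, with median widths of 569 and 195.5 bp, and the whole lists had 530 and 221 bp. As shares, these were 0.0760% of the 99959 regions of NCI-H660 and 0.0455% of the 210960 of PC3. The log2 ratio of the counts was -0.34 (exact 95% interval -0.79 to 0.11). At a score of at least 100 the loci held 60 regions in NCI-H660 and 30 in PC3, a log2 ratio of 1.00 (0.34 to 1.68). Scores are not normalised between lists, and the median score was 272 in the whole NCI-H660 list and 112 in that of PC3. The same cutoff therefore takes unequal parts of the 2 lists. At the loci the medians were 242.5 and 48. More regions in NCI-H660 were counted at 3 of the 9 genes, namely NEUROD1, NKX2-1 and PROX1, and at 7.59% of all genes. The 2 ATAC lists came from separate processing folders, and whether that bears on the widths was not tested.

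Every one of the 9 loci had ATAC regions in both lines, as had 95.9% of genes in NCI-H660 and 99.1% in PC3. Of the 76 NCI-H660 ATAC regions, 24 overlapped one of PC3, against 41.2% of the whole list. Of the 96 PC3 regions, 28 overlapped one of NCI-H660, against 21.5%. Within 1 kb of a start, all 9 genes had an ATAC region in NCI-H660, against 74.7% of all genes, and 6 in PC3, against 77.5%. NEUROD1, NKX2-1 and SRRM4 had none in PC3, whereas their starts carried NCI-H660 regions of 394, 1639 and 336 bp. These regions scored 189, 180 and 36, in a list with a median of 272, so the one at SRRM4 was weak.

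**Figure D3:**
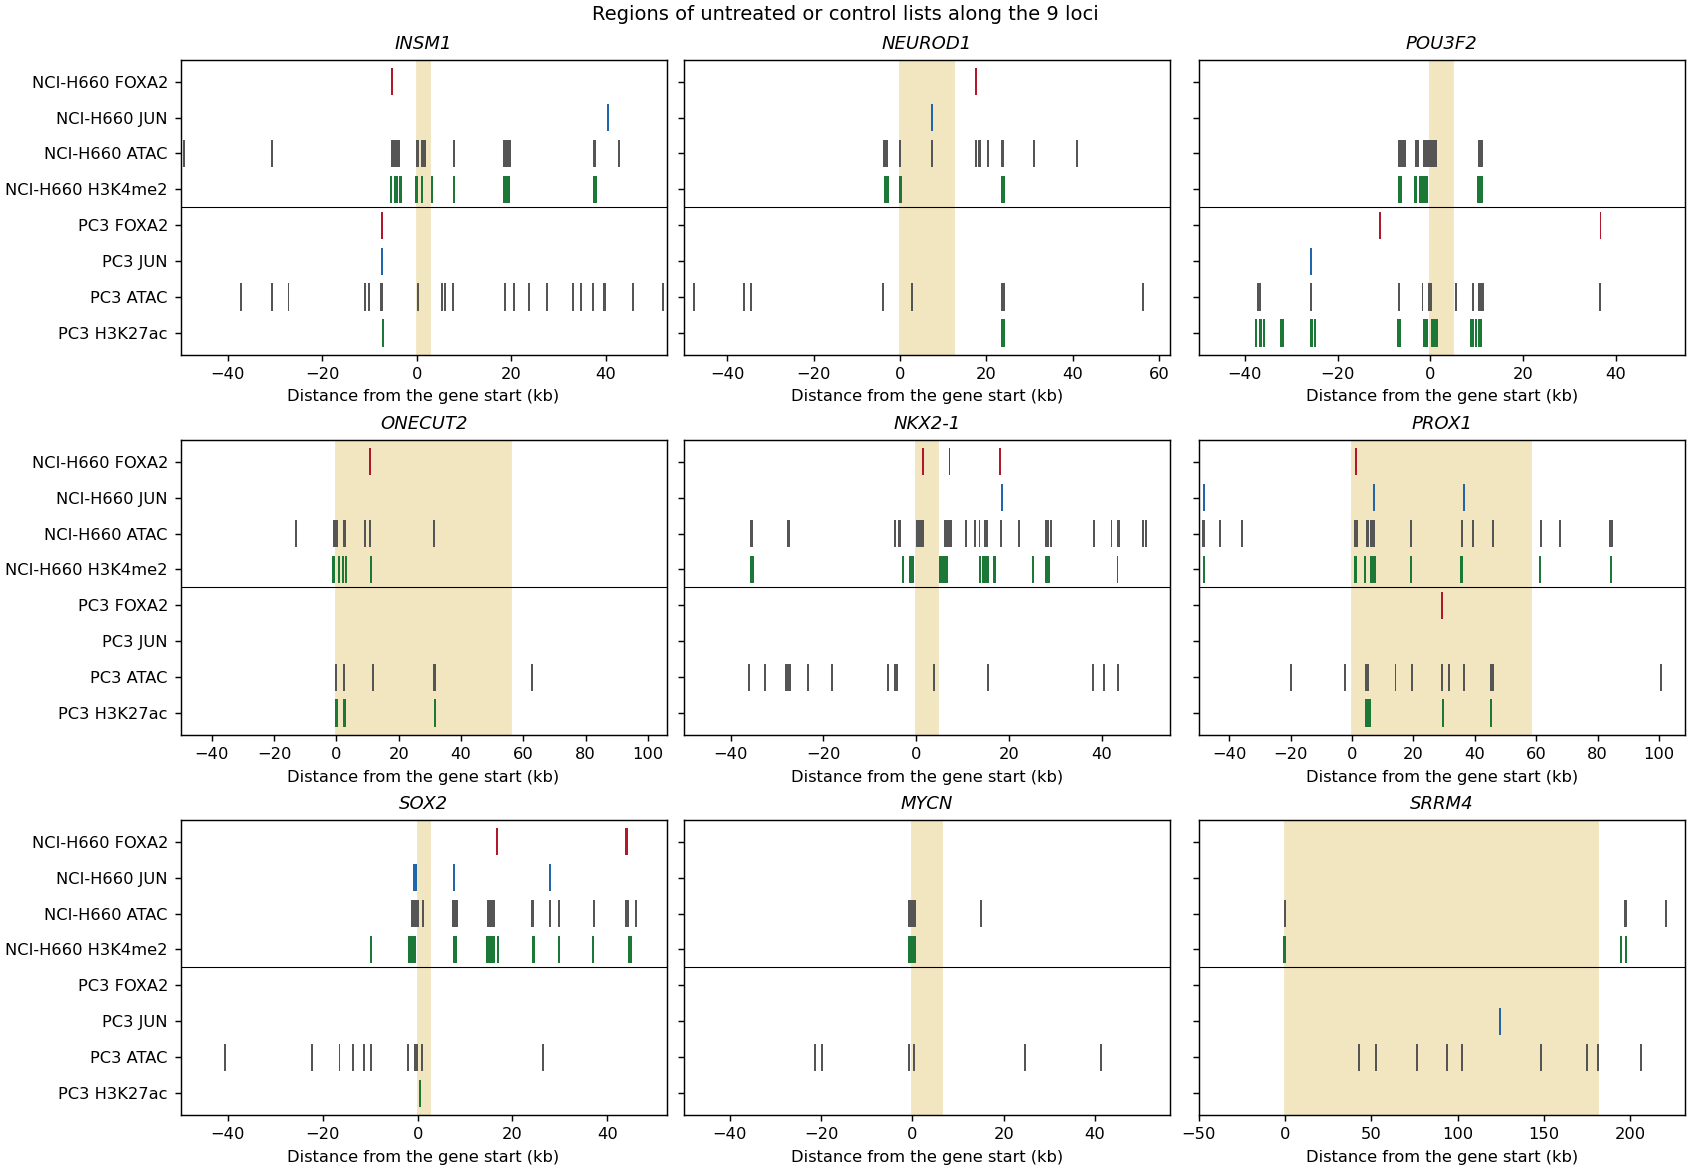
Regions of the untreated or control lists along each locus, by distance from the gene start in kb (negative is upstream, shading is the gene body); rows give FOXA2 in red, JUN in blue, ATAC in grey, and H3K4me2 (NCI-H660) or H3K27ac (PC3) in green, and the narrowest regions are widened to stay visible. FOXA2 and JUN regions of NCI-H660 sit at separate places in all loci but NKX2-1, and the ATAC row of NCI-H660 is dense over NKX2-1, SOX2 and PROX1.

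Most FOXA2 regions of NCI-H660 lay in chromatin listed as open in NCI-H660, and none in chromatin listed as open in PC3. Of the 9 regions, 8 overlapped a NCI-H660 ATAC region, against 90.9% of the list, and the exception was the SOX2 region of score 43. None of the 9 overlapped a PC3 ATAC region (0%, interval 0 to 33.6), whereas 35.2% of the list did. With 100 kb on each side of the genes, 1 of 13 did (7.69%, interval 0.195 to 36.0). In PC3, 3 of the 4 FOXA2 regions overlapped a PC3 ATAC region, against 89.3% of that list, and the POU3F2 region of score 66 did not. None of the 4 overlapped a NCI-H660 ATAC region, against 22.6%.

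H3K4me2, a mark of active and poised promoters and enhancers, was listed at all 9 loci and all 9 starts in NCI-H660, and 94.7% of genes had such a region within 50 kb and 74.5% at a start. The 53 regions covered 42.8 kb, most at NKX2-1 (8.36 kb), SOX2 (7.66 kb) and PROX1 (6.45 kb). Only 3 of the 9 FOXA2 regions (33.3%, interval 7.49 to 70.1) overlapped H3K4me2, the PROX1 region and both SOX2 regions, against 62.7% of the list. Several others lay beside it, with gaps of 34 bp at ONECUT2, 47 bp at INSM1, and 288 and 872 bp at NKX2-1. Within 1 kb of H3K4me2 were 7 of the 9, and 74.4% of the list. The strong NEUROD1 region was 5503 bp from the nearest H3K4me2 region.

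H3K27ac, a mark of active promoters and enhancers, was listed in PC3 at 6 of the 9 loci and near 92.5% of all genes. POU3F2 took 13 of the 22 regions and 8.45 kb of the 15.4 kb covered. Its H3K27ac regions ran from -37.6 kb to 10.7 kb from the start, and the strongest scored 756. NKX2-1, MYCN and SRRM4 had none, and INSM1, NEUROD1 and SOX2 had 1 each. At the starts, H3K27ac was present for 4 of the 9 genes, POU3F2, ONECUT2, PROX1 and SOX2, and for 68% of all genes. Of the 4 PC3 FOXA2 regions, only the INSM1 region overlapped H3K27ac, against 58.7% of the list.

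JUN occupied 5 of the 9 loci in siNC NCI-H660 cells with 9 regions, and 3 of the 9 in siNC PC3 cells with 3 regions. The log2 ratio was 1.58 (exact 95% interval -0.42 to 4.11). Of all genes, 66.2% had a NCI-H660 JUN region within 50 kb and 62.8% a PC3 region. More JUN regions in NCI-H660 were found at NEUROD1, NKX2-1, PROX1 and SOX2, 4 of the 9 genes, and at 35% of all genes. The loci took 0.0489% of the NCI-H660 list of 18401 regions and 0.0126% of the PC3 list of 23890. The lists of the 2 lines came from separate processing folders, and what that adds cannot be told apart from the lines.

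SOX2 held the strongest of these JUN regions, chr3:181457419-181457774, with a score of 348 (top 11.8% of the list), 27.9 kb from the SOX2 start in an exon of SOX2-OT. SOX2 also had regions of score 62, 7.65 kb downstream, and of score 33, just upstream of its start. The INSM1 region, in an intron of RALGAPA2, scored 171, and the NKX2-1 region, in an intron of SFTA3, scored 159. At PROX1 the 3 regions scored 87, 31 and 22, and the NEUROD1 region scored 72. The 3 PC3 JUN regions were weak, with 56 at INSM1, 49 at POU3F2 and 22 at SRRM4.

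An AP-1 word was present in 2 of the 9 NCI-H660 JUN regions, those at SOX2 (score 348) and NEUROD1, and in 13.8% of the list. Of the 9 JUN regions, 8 overlapped a NCI-H660 ATAC region, against 86% of the list, and 2 overlapped a PC3 ATAC region, against 50.4%. Within 1 kb of H3K4me2 were 5 of the 9, against 78.7%, and these were the 3 PROX1 regions and the 2 weaker SOX2 regions.

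FOXA2 and JUN mostly occupied separate places at these loci. In NCI-H660, 1 of the 9 FOXA2 regions (11.1%, interval 0.281 to 48.2) overlapped a JUN region, against 36.4% of the FOXA2 list. That overlap, at NKX2-1, was 7 bp long, between chr14:36972070-36972291 and chr14:36971794-36972076. The other 8 were at least 5.63 kb from the nearest JUN region. In PC3, 1 of the 4 FOXA2 regions overlapped a JUN region, against 44.3%, and it was the INSM1 region, by 188 bp.

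ORY-1001 left the stronger FOXA2 regions of NCI-H660 in place. Of the 9 vehicle regions, 6 were still listed (66.7%, interval 29.9 to 92.5), and 68.4% of the whole list was. The NEUROD1 region went from a score of 446 to 640 and the leading NKX2-1 region from 352 to 505. The PROX1 region went from 320 to 109. The remaining kept regions moved little, from 144 to 142 at SOX2, and from 98 to 108 and from 92 to 80 at NKX2-1. The regions at INSM1 (41), ONECUT2 (37) and the second SOX2 place (43) were no longer listed.

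All kept regions thus scored at least 92 under vehicle and all lost ones at most 43. These limits were read from the same regions. Over the genome, 83.1% of vehicle regions with a score of at least 92 were kept and 21.2% of those with at most 43. Scores at kept places were higher after ORY-1001 at 47.9% of 8131 places genome-wide, with a median ratio of 0.982.

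**Figure D4:**
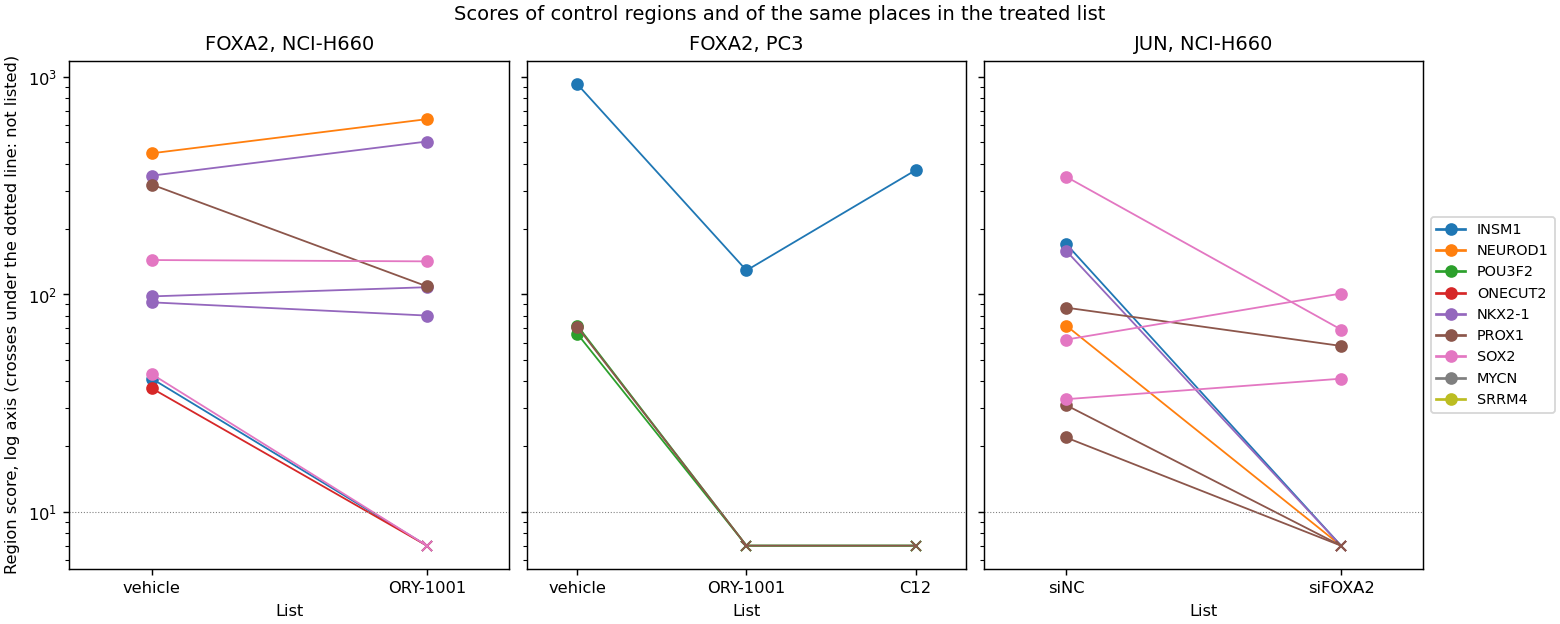
Score of each control region at the 9 loci and of the same place in the treated list (log axis, 1 line per region, colour by locus, crosses below the dotted line for places no longer listed), for FOXA2 in NCI-H660 (left), FOXA2 in PC3 (middle) and JUN in NCI-H660 (right). In NCI-H660 the 3 weakest FOXA2 regions are lost, in PC3 the INSM1 region alone stays, and 5 of 9 JUN regions are lost after siFOXA2.

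The ORY-1001 list of NCI-H660 also held 4 FOXA2 regions at the loci that the vehicle list did not, with scores of 14 to 38. They lay at NKX2-1, ONECUT2 and, with 2, at PROX1, and 3 of the 4 overlapped a NCI-H660 ATAC region, against 69.9% of all regions new after ORY-1001. The total was 10 after ORY-1001 and 9 after vehicle. Of the whole ORY-1001 list, 29.1% was likewise absent from the vehicle list.

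In PC3, 1 of the 4 FOXA2 regions was kept after ORY-1001 and the same one after C12 (25%, interval 0.631 to 80.6 for each), against 36.8% and 29.6% of the whole list. Counted from the further PC3 lists, the same INSM1 place was 1 of 15 (6.67%) and 1 of 13 (7.69%) kept under either inhibitor. Of those whole lists, 11.8% and 14.5% were kept under ORY-1001 and 8.67% and 10.7% under C12. The inhibitor lists held only 13732 and 8352 regions and came from another processing folder than the further lists. The shares counted from the further lists are limited by these lengths and do not measure loss under an inhibitor. The INSM1 region scored 927 after vehicle, 129 after ORY-1001 and 373 after C12. The 3 weaker regions, at POU3F2 and PROX1, were lost under both inhibitors. New were 2 regions after ORY-1001, at NKX2-1 (score 42) and PROX1 (27), and 1 after C12, at PROX1 (21), and none of the 3 overlapped a PC3 ATAC region, against 39.9% of all new regions after ORY-1001 and 41.6% after C12. The doses of the inhibitors differ, and both treatments share the vehicle list, so the values are given side by side only.

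**Figure D5:**
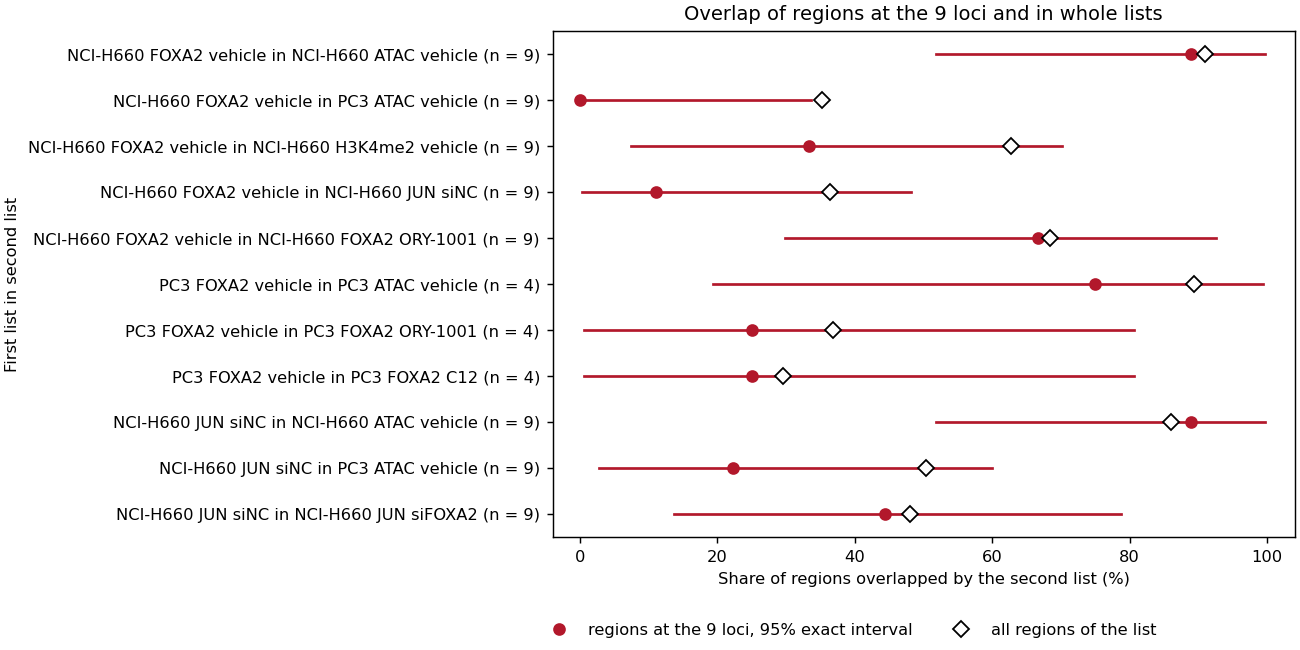
Share in % of the regions of a first list that the second list overlaps, at the 9 loci (filled points, lines are exact 95% intervals from counting) and over the whole first list (open diamonds); n is the number of regions at the loci. All NCI-H660 FOXA2 regions at the loci lie outside PC3 ATAC regions, while the whole list has 35.2% inside. The intervals treat regions as independent, although several share a locus, and they are no test.

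After siFOXA2 the JUN list of NCI-H660 grew from 18401 to 59452 regions, and at the 9 loci from 9 to 38. Of the 9 siNC regions, 4 were kept (44.4%, interval 13.7 to 78.8), against 48% of the list. All 3 SOX2 regions were kept, with scores from 348 to 69, from 62 to 101 and from 33 to 41, and so was the PROX1 region of score 87, which went to 58. Of the 8832 places kept genome-wide, 37.65% scored higher after siFOXA2, with a median ratio of 0.822. Lost were the regions at INSM1 (171), NKX2-1 (159) and NEUROD1 (72) and 2 at PROX1 (31 and 22). Unlike the FOXA2 regions under ORY-1001, the lost JUN regions included those of scores 171 and 159, above all but 1 of the kept ones.

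The 38 siFOXA2 regions lay at 8 of the 9 loci, with 10 at SOX2, 7 at PROX1, 6 at NKX2-1 and 5 at INSM1, and 83.5% of all genes had such a region. Of the 38, 4 overlapped a siNC JUN region, against 14.8% of the list. Of all 38, 15 overlapped a NCI-H660 ATAC region, against 31.5%, and 5 held an AP-1 word, against 4.99%. The 34 regions absent from the siNC list had scores of 16 to 110 with a median of 34. At a score of at least 100 the loci held 3 JUN regions after siNC and 2 after siFOXA2, and the genome 7746 and 4889. The added regions were thus mostly low scoring, as was the whole siFOXA2 list, whose median score was 39 against 78 after siNC.

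Among the added JUN regions, chr18:55113193-55113748 in an intron of ONECUT2 (score 54) covered the place of the ONECUT2 FOXA2 region. The highest score, 110, stood at SOX2, 36.9 kb from its start, in a place with ATAC and H3K4me2 regions. At NEUROD1 the single siFOXA2 region scored 72, as the lost siNC region had, but lay 2.81 kb upstream of the start.

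In PC3, siFOXA2 left none of the 3 JUN regions, and 13.4% of the whole list was kept as it shrank from 23890 to 4081. The single FOSL1 region, at SOX2 with a score of 37, was also not listed after siFOXA2, when 6.9% of the FOSL1 list was kept. FOSL1 is a FOS family partner of JUN.

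In LNCaP cells JUN was listed at 1 of the 9 loci after siNC, and 13.4% of all genes had such a region. It lay in the POU3F2 window, 36.6 kb from the POU3F2 start and over an untranslated part of FBXL4. There it overlapped the PC3 FOXA2 region of score 72. After siFOXA1 none was listed at the loci, from a list of 1964. FOXA2OE cells had 16 JUN regions at 6 loci, with 7 at SOX2 and 3 each at INSM1 and SRRM4, when 79.5% of all genes had one. The log2 ratio to siNC was 4.00 (exact 95% interval 1.31 to 9.39), beside whole lists of 23994 regions in FOXA2OE and 2421 in siNC. FOXA2OE is a stable line and siNC a control siRNA in LNCaP cells, and their lists came from separate processing folders. What the line, the control and the processing each add cannot be told apart. Taken as shares of their lists, the loci held 0.0667% in FOXA2OE and 0.0413% in siNC.

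The FOXA2OE JUN regions had low scores and were rich in G and C. Scores ran from 31 to 114 and only 1 reached 100, in a list with a lowest score of 30 and a median of 64. Of the 16, 6 overlapped a siFOXA2 JUN region of NCI-H660, against 24.9% of the list. None of the 16 held an AP-1 word, against 2.38% of the list, and their median GC content was 63.5%, near the mean of 64.2% of the whole list. None of the 9 loci had a FOXA2 region in FOXA2OE cells, where 6.03% of all genes had one, from a list of 2500 regions. The FOXA2K265R list held 28 JUN regions at 8 loci, 10 of them at SRRM4, when 85% of genes had one. The SRRM4 window is the widest of the 9, at 281.511 kb, and also holds the gene HSPB8. Of the 16 FOXA2OE regions, 7 overlapped a FOXA2K265R region, against 37% of the list. At SOX2, a place 7.65 kb downstream of the start was listed for JUN in siNC and siFOXA2 NCI-H660 cells, in FOXA2OE and in FOXA2K265R, the only JUN place of the 9 loci in these 4 lists.

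MYCN, SRRM4 and POU3F2 had no FOXA2 or JUN region in vehicle or siNC NCI-H660 cells, and MYCN had none of either after ORY-1001 or siFOXA2. MYCN had 2.09 kb of accessible chromatin in NCI-H660, at its start and at 1 more place, and 1.36 kb in PC3. POU3F2 had 6.55 kb of accessible chromatin and 4.51 kb of H3K4me2 in NCI-H660.

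Beyond the 9, a list of 26 further neuroendocrine and neural regulators was counted. FOXA2 regions lay near 12 of the 26 in NCI-H660 (25 regions), near 7 in the PC3 vehicle list (10 regions), and near 17 and 18 in the further PC3 lists (44 and 38 regions). The shares of all genes were those given above, 37.6% for NCI-H660 and 54.1%, 86.5% and 82.9% for the PC3 lists. Against the PC3 vehicle list, NCI-H660 had more at 11 of them, among them NEUROG3, PAX6 and NKX2-2, fewer at 3 (HES6, RFX6 and SCRT1) and the same number at 12. Against the further PC3 lists it had more at 7 and 8 and fewer at 13 and 14, so the direction of the counts turned with the list. Of all genes, 15.7% had more FOXA2 regions in NCI-H660 than in the PC3 vehicle list. Against the further PC3 lists, which are several times longer, the shares were 3.99% and 5.18%.

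The marker genes of the cell types gave a weak check of the labels. ATAC regions lay at the starts of 7 of 7 neuroendocrine markers in NCI-H660 and of 6 of 7 in PC3, which lacked one at CHGA. For luminal markers the numbers were 4 and 5 of 6, and for basal markers 5 and 5 of 6. Of all genes, 74.7% had an ATAC region at a start in NCI-H660 and 77.5% in PC3. Accessibility of the start therefore hardly separated the lines. H3K27ac in PC3 lay at 3 of the 7 neuroendocrine, 4 of the 6 luminal and 4 of the 6 basal starts, against 68% of all genes. H3K4me2 in NCI-H660 lay at 7 of 7, 4 of 6 and 5 of 6, against 74.5% of all genes. The marks differ, so these counts do not compare the lines.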

How the data were processed

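ChIP-seq and ATAC reads were aligned by the authors to hg19 with bwa 0.7.17-r1188, converted with SAMtools 1.9 and called with MACS2 2.1.4, and FastQC 0.11.9 is named in the submitters' processing notes. The control library, caller settings and any pooling are not given in the sources used here. The deposited score of a region is a whole number of no stated scale. From its usual minimum of 13 it was taken for the -log10 q-value multiplied by 10. It is not normalised between lists, and 2 LNCaP lists carry none. Lowest scores of 14, 23 and 30 in other lists show unequal thresholds.

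Groups followed the sample labels. Genes were taken from GENCODE 44 lifted to GRCh37, and every list ended within the chromosome lengths of that reference. Overlap meant at least 1 bp. Counts, shares, exact 95% intervals and motif matches were computed with Python 3.11.15, numpy 2.4.6, pandas 2.3.3 and scipy 1.17.1, and the overlap code was tested on simulated lists. No comparison between groups had replicates on both sides, so none was tested. All 9 genes are named. They, the 26 further regulators, the markers and the comparisons were chosen with earlier results of these data known. The score limits of 92 and 43 were taken from the values themselves. Alternatives changed the window, score minimum, list length, overlap, PC3 list and loci.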

Additional observations from a re-analysis of the deposited data

Results flagged for a closer look

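JUN regions at the 9 loci moved in opposite directions after siFOXA2, from 9 to 38 in NCI-H660 and from 3 to 0 in PC3, which makes a difference of 32 regions between the changes in the 2 lines. The whole lists moved the same ways, and at a score of at least 100 the NCI-H660 count fell from 3 to 2. FOXA2 regions after ORY-1001 went from 9 to 10 in NCI-H660 and from 4 to 3 in PC3, a difference of 2 regions. From the further PC3 vehicle lists, with 15 and 13 regions, the PC3 change would be larger, but those lists are several times longer and from another processing folder. Neither difference was tested.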

How the results depend on the processing

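Across the 12 comparisons, 103 alternatives gave a value. Of these, 89 stayed within the interval of the reported value and 14 moved outside it. A reversal was called only for a log2 ratio whose interval excluded 0. The LNCaP JUN ratio alone met this, and 0 reversals were found. The FOXA2 and ATAC log2 ratios, whose intervals include 0, changed sign under some alternatives. With the first further PC3 list, the FOXA2 log2 ratio of NCI-H660 to PC3 was -0.74. With the second it was -0.53, which still lay within the wide interval. The ATAC log2 ratio was 1.00 at a score of at least 100 and 1.44 with equal numbers of the top regions. The H3K4me2 share of NCI-H660 FOXA2 regions was 0% with equal numbers, since that setting shortens the H3K4me2 list. The JUN share was 0% with 10 kb windows, at a score of at least 100 and when overlaps had to cover 50% of the shorter region. At a score of at least 100, the share kept under ORY-1001 was 100% in NCI-H660 (4 of 4) and 100% in PC3 (1 of 1), that under C12 100%, the NCI-H660 JUN share kept 0% and the LNCaP log2 ratio 0, with the siNC list, which has no score, left whole. With equal numbers, the PC3 shares kept were 100% for ORY-1001 and 100% for C12, each 1 of 1. In 7 cases no value could be given, because a list had no region left or no score. No place was shared by 17 or more lists, so leaving such places out changed nothing. Leaving out any 1 locus kept each count ratio within its interval where it could be computed. No paired analysis was possible because the groups compared share fewer than 2 replicate numbers. Depth is unknown, 3 to 9 regions per share in the main comparisons leave wide intervals, and a region missing from a list may lie just under the caller's threshold.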
